A study of Mus musculus with 6 samples.

Results

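The structural myelin genes Mag, Mog, Mobp, Cnp, Mal, Pllp and Gjb1 were compared between wild-type (WT) and SOD1-G85R mouse brain. They were taken by name from a 770-gene panel as genes coding for proteins built into the myelin sheath, and all 7 were measured. Each gene averaged lower in the 3 SOD1-G85R samples than in the 3 WT samples, at between 42.8% (Mal) and 66.4% (Gjb1) of its WT mean. For Mag, Mog, Mobp, Cnp and Mal every SOD1-G85R sample lay below every WT sample, whereas for Pllp and Gjb1 the groups overlapped. None of the 7 genes passed limma's test after Benjamini-Hochberg adjustment across 712 tested genes (adjusted p from 0.222 to 0.475), and neither did any other gene of the panel (0% called), although 116 of the 712 had an unadjusted p under 0.05.

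Myelin is the layered membrane that oligodendrocytes wrap around axons in the central nervous system. Its structural proteins hold the layers together, join them to the axon and couple them to neighbouring cells, and their genes are switched on as oligodendrocytes mature under the transcription factors SOX10 and MYRF. In the mouse brain most myelin is laid down after birth, so that these transcripts climb steeply during early postnatal life.

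The samples were whole-brain homogenates of C57BL/6 mice, wild type or transgenic for SOD1-G85R, labelled day 10, with 3 samples of each genotype. The transgene carries a mutation of superoxide dismutase that causes familial motor neuron disease (ALS). The sources used here do not give the start of the day count, the promoter or line of the transgene, or whether replicates were separate animals. The p-values therefore cover the spread between these 6 samples, which may be technical. RNA was counted by NanoString, in which colour-coded probes are hybridised to RNA and counted without amplification, and the deposited values are called normalized counts. Implied totals per sample were 468719 to 1022648 counts. SOD1-G85R replicate 2 stood apart, with correlations across genes of 0.824 to 0.834 with the other samples, against 0.956 to 0.984 among those, and results are therefore given with and without it. The Y-linked gene Uty gave signal in 2 WT samples and 1 SOD1-G85R sample. The oligodendrocyte markers Mag, Mog, Mobp, Cnp, Opalin and Sox10 were above the floor in every sample, and the transgene itself was not analysed here.

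The stretches upstream of the genes were searched for letter patterns of the lineage's transcription factors. The members whose upstream stretch held most matches are printed with Mal, which had the largest difference and no match. Each is the 250 bases before the most upstream start that RefSeq's promoter table gives for the gene (GRCm38.p6). For Cnp the gene record itself begins at position 100574909, inside the end of the printed stretch. Capitals mark ACAAAG, a SOX core motif, and CTGGNAC, a pattern searched for MYRF, on either strand (CTTTGT and GTNCCAG on the other). N stands for any base, so the pattern may be looser than what MYRF recognises.
Mag, chr7:30914923-30915172, minus strand: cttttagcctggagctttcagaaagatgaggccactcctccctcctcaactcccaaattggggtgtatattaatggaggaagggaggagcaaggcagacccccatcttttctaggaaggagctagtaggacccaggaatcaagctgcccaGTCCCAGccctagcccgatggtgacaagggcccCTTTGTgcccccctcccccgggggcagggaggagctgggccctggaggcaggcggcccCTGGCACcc
Mobp, chr9:120149492-120149741, plus strand: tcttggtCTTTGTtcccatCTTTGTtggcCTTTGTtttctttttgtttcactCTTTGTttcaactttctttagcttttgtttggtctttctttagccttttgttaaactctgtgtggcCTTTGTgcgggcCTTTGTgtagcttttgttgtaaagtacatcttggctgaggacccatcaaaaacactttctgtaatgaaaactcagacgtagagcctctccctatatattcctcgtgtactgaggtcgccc
Cnp, chr11:100574689-100574938, plus strand: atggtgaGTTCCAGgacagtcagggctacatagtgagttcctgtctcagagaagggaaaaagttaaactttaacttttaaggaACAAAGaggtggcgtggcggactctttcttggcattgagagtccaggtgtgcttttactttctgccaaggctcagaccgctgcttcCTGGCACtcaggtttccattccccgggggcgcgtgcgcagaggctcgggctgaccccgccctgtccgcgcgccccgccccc
Mal, chr2:127656696-127656945, minus strand: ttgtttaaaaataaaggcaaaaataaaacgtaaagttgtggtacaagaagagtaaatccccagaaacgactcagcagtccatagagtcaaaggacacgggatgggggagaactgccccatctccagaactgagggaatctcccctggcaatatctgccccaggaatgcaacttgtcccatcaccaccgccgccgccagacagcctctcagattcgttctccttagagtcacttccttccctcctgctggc
ACAAAG was found upstream of 4 of the 7 genes (Mag, Mobp, Cnp and Gjb1) and of 16.5% of 27025 RefSeq genes. CTGGNAC was found upstream of 3 (Mag, Mog and Cnp) and of 15.9% of all. Mobp carried 6 copies of the SOX core, all as CTTTGT, between 243 and 120 bases before its start. It was the only 1 of the 27025 stretches with at least 6, a cut-off set by its own count. Mal and Pllp held neither motif in this window. RefSeq gives 3 starts for Mag and 4 for Gjb1, of which only the most upstream was searched. The motifs do not overlap each other in these stretches, and a match is a description of letters, not a binding site.

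Mag and Mog code for immunoglobulin-domain proteins at the borders of the sheath. Mag, the myelin-associated glycoprotein of the membrane facing the axon, was at 1296, 1904 and 1691 normalized counts in WT replicates 1, 2 and 3 and at 666, 914 and 1016 in SOD1-G85R replicates 1, 2 and 3. All 3 SOD1-G85R values lay below the lowest WT value, by at least 281. The means were 1630 ± 308 and 865 ± 180 (SD, n = 3 each), and the difference on the log2(value + 1) scale, SOD1-G85R minus WT, was -0.92 (SE 0.26, 95% interval -1.54 to -0.30, limma adjusted p = 0.222). Mag was the member with the lowest relative spread in WT, an SD of 18.9% of the mean.

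Mog, the oligodendrocyte glycoprotein of the outermost myelin surface, was at 1355, 2737 and 1835 in the WT replicates and at 672, 1068 and 997 in the SOD1-G85R replicates. The groups were apart by 287, although WT itself ranged widely, with replicate 2 well above the other WT samples. The mean was 1976 ± 702 in WT and 912 ± 211 in SOD1-G85R, and the log2 difference was -1.08 (SE 0.33, 95% interval -1.89 to -0.28, limma adjusted p = 0.224).

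Mobp and Cnp code for proteins on the cytoplasmic side of the myelin membrane. Mobp, a small basic protein of compact myelin, was at 4424, 6903 and 5726 in the WT replicates and at 1815, 3684 and 3146 in the SOD1-G85R replicates. Its groups were apart by 740, and the lowest sample was SOD1-G85R replicate 1. The mean was 5684 ± 1240 in WT and 2882 ± 962 in SOD1-G85R, with a log2 difference of -1.02 (SE 0.33, 95% interval -1.82 to -0.21, limma adjusted p = 0.235).

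Cnp, the nucleotide phosphodiesterase of the cytoplasmic channels of non-compact myelin, was at 9311, 14078 and 11215 in the WT replicates and at 4796, 8854 and 7460 in the SOD1-G85R replicates. SOD1-G85R replicate 2 came close to WT replicate 1, and the gap between the groups was 457. The mean was 11535 ± 2400 in WT and 7037 ± 2062 in SOD1-G85R, and the log2 difference of -0.74 (SE 0.30) had a 95% interval from -1.47 to -0.01 (limma adjusted p = 0.301). Without SOD1-G85R replicate 1 the log2 difference of Cnp was -0.48, the smallest of its values with 1 sample left out.

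Mal and Pllp code for small proteolipids with several membrane spans that sort into the lipid-rich domains of myelin. Mal, the myelin and lymphocyte protein, was at 1315, 2887 and 2054 in the WT replicates and at 519, 1197 and 960 in the SOD1-G85R replicates. The groups were apart by 119, and both genotypes spread widely, with an SD of 37.7% of the mean in WT and 38.6% in SOD1-G85R. Mal had the largest difference of the 7 genes and also the largest standard error, with means of 2086 ± 786 and 892 ± 344 and a log2 difference of -1.24 (SE 0.42, 95% interval -2.26 to -0.21, limma adjusted p = 0.248).

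Pllp, or plasmolipin, was at 334, 637 and 499 in the WT replicates and at 197, 340 and 321 in the SOD1-G85R replicates. Its groups overlapped by 1 pair of values, SOD1-G85R replicate 2 lying 6.17 above WT replicate 1. The mean was 490 ± 152 in WT and 286 ± 77.6 in SOD1-G85R, and the log2 difference was -0.76 (SE 0.34, 95% interval -1.58 to 0.05, limma adjusted p = 0.343).

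Gjb1, a connexin that forms gap junctions between myelin layers and to astrocytes, was at 212, 383 and 360 in the WT replicates and at 131, 221 and 283 in the SOD1-G85R replicates. SOD1-G85R replicates 2 and 3 both exceeded WT replicate 1, so that Gjb1 was the member whose groups overlapped most. The mean was 319 ± 92.9 in WT and 211 ± 76.2 in SOD1-G85R, and the log2 difference was -0.61 (SE 0.38, 95% interval -1.52 to 0.30, limma adjusted p = 0.475). Without SOD1-G85R replicate 1 it was -0.30, and without WT replicate 2 it was -0.45.

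**Figure D1:**
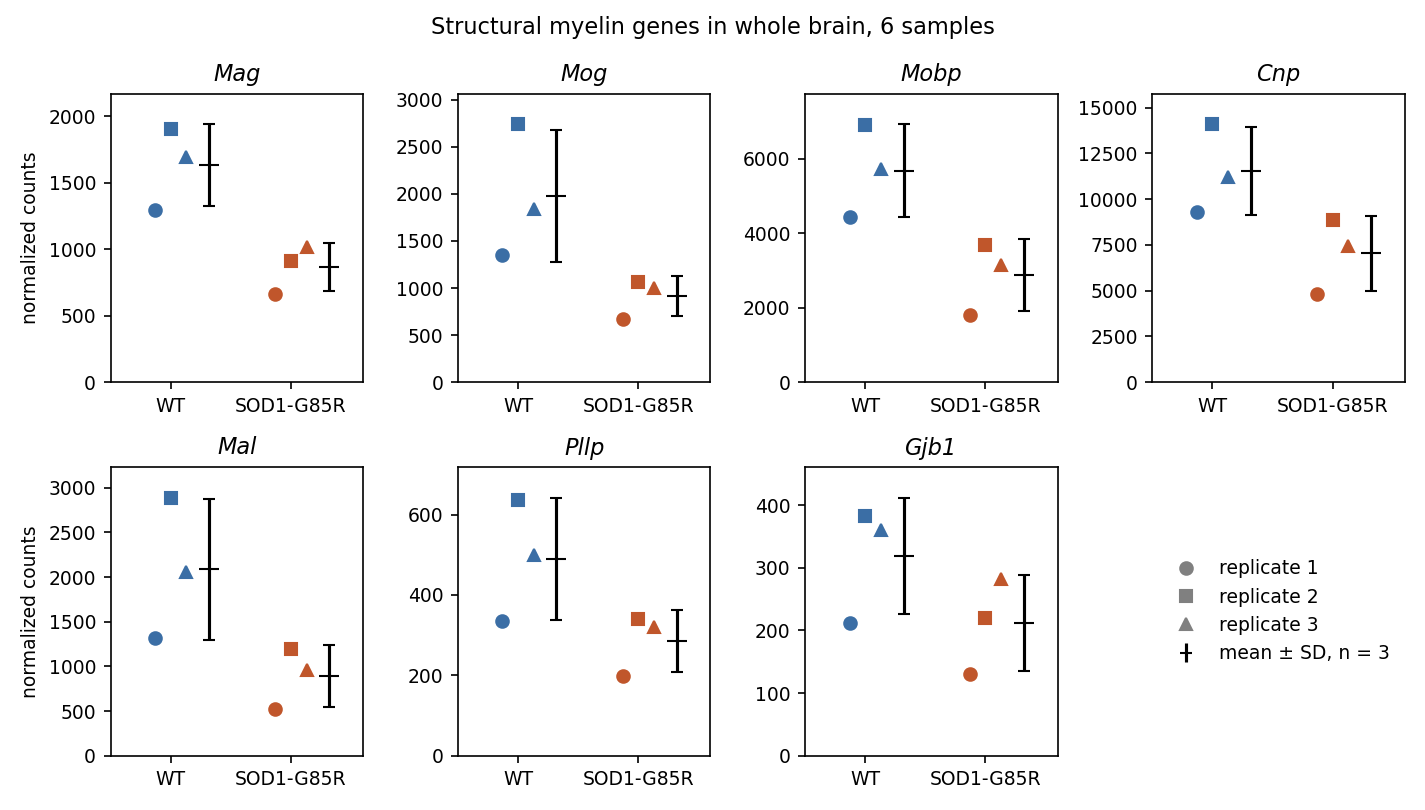
Normalized counts of the 7 structural myelin genes (y axis, linear from 0) in WT and SOD1-G85R whole brain. Each point is a sample, its shape gives the replicate number, and the bar beside it is the mean ± SD of 3 samples. The groups are separate for Mag, Mog, Mobp, Cnp and Mal and overlap for Pllp and Gjb1.

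Across the set, 5 of the 7 genes were lower in every SOD1-G85R sample than in every WT sample, against 9.97% of the 712 genes tested. The same 5 had an unadjusted p under 0.05 with limma, against 4.63% of all genes called lower at that level. For these 5 an exact two-sided permutation test over the samples gave p = 0.1 each, the smallest that 3 samples against 3 allow, and for Pllp and Gjb1 exact p = 0.2 and 0.3. The median log2 difference of the 7 genes was -0.92, while the median over all genes tested was 0.15, and 37.4% of all genes were below 0. In order of the log2 difference from the lowest, the 7 genes took places 4 (Mal), 5 (Mog), 6 (Mobp), 9 (Mag), 19 (Pllp), 20 (Cnp) and 30 (Gjb1) of 712. After quantile normalization the 7 genes lay between places 5 and 72. The order among them was not tested. In bulk RNA, fewer oligodendrocytes and less of these transcripts per oligodendrocyte cannot be told apart.

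**Figure D2:**
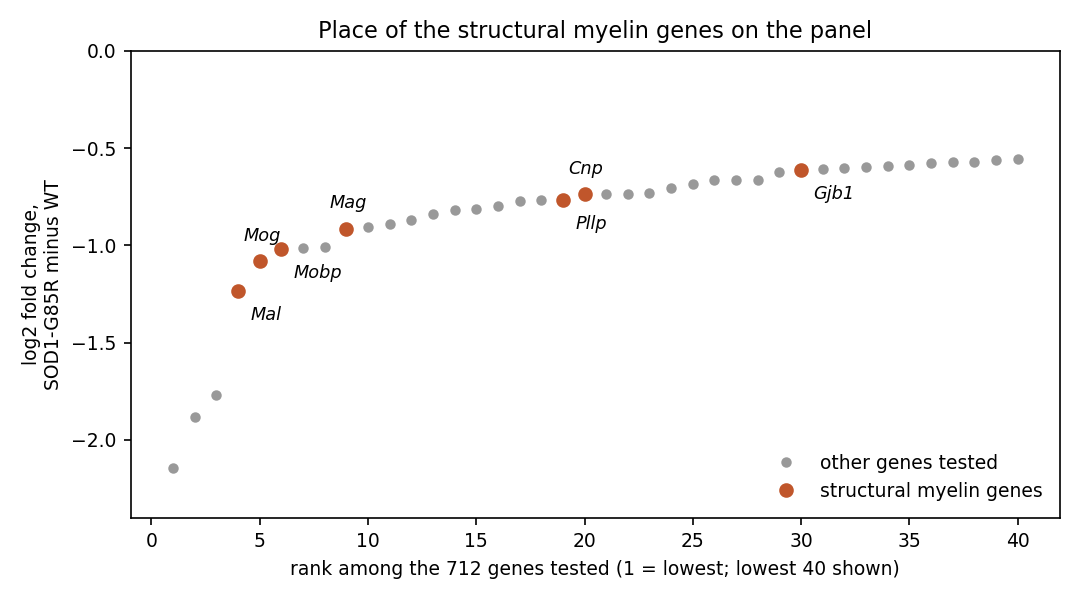
The 40 lowest of 712 log2 differences (y axis, SOD1-G85R minus WT, log2 scale) by rank (x axis, 1 is the lowest). The 7 structural myelin genes, in orange, lie between places 4 and 30, and other genes tested are grey.

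Leaving out SOD1-G85R replicate 2, which stood apart over the panel, did not move the genes towards WT. That sample was the highest SOD1-G85R sample for 5 of the 7 genes, so leaving it out had to lower the SOD1-G85R mean of those. It also held the only Pllp value that overlapped with WT. Without SOD1-G85R replicate 1 instead, the median of the 7 genes was -0.72. The values that follow are without replicate 2. All 7 stayed below 0 with a median of -0.97, 6 of 7 were below every WT sample (16.2% of all genes were), and 6 of 7 had an unadjusted p under 0.05 in limma (5.20% of all genes were lower at that level). The median of all genes was 0.01 in that fit. Adjusted over all genes, none of the 7 passed there, with Mobp and Mal closest (limma adjusted p = 0.0857 each), while 1.40% of the panel was called. With that sample left out and the others centred on their medians, Mag, Mog, Mobp, Cnp and Mal passed (limma adjusted p from 0.0189 to 0.0477), in a fit that called 11.2% of the panel, 1.54% of it lower. With all 6 samples centred on their medians none of the 7 passed.

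The 7 genes mostly varied together from sample to sample within each genotype. WT replicate 2 was the highest of the 6 samples for all 7 genes, as it was for 13.8% of all genes tested. WT replicate 1 was the lowest WT sample for all 7, against 52.9% of all genes, and SOD1-G85R replicate 1 was the lowest of the 6 samples for all 7, against 27.5%. The shares over all 6 samples partly restate that the 7 genes were lower in SOD1-G85R. The highest SOD1-G85R sample was not shared: it was replicate 2 for 5 of the genes and replicate 3 for 2, Mag and Gjb1. Relative to the WT mean, the median of the 7 genes on the log2 scale was -0.48, 0.31 and 0.05 in WT replicates 1, 2 and 3. It was -1.27, -0.60 and -0.66 in SOD1-G85R replicates 1, 2 and 3. WT replicate 1 thus lay closer to SOD1-G85R replicates 2 and 3 than to WT replicate 2. The mean of 13 housekeeping genes, measured the same way, stayed between -0.02 and 0.05 in all 6 samples. These include Asb10, untested and at the floor in WT (8.05 to 13.4), but at 22.4 and 28.4 in SOD1-G85R replicates 1 and 3. Of the 12 tested, 10 had a negative log2 difference (median -0.10), against 37.4% of all genes. In 2 of the 12 every SOD1-G85R sample was lower than every WT sample, against 9.97% of all genes. The genes behind the deposited scaling are unknown, so a flat mean may follow from it.

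**Figure D3:**
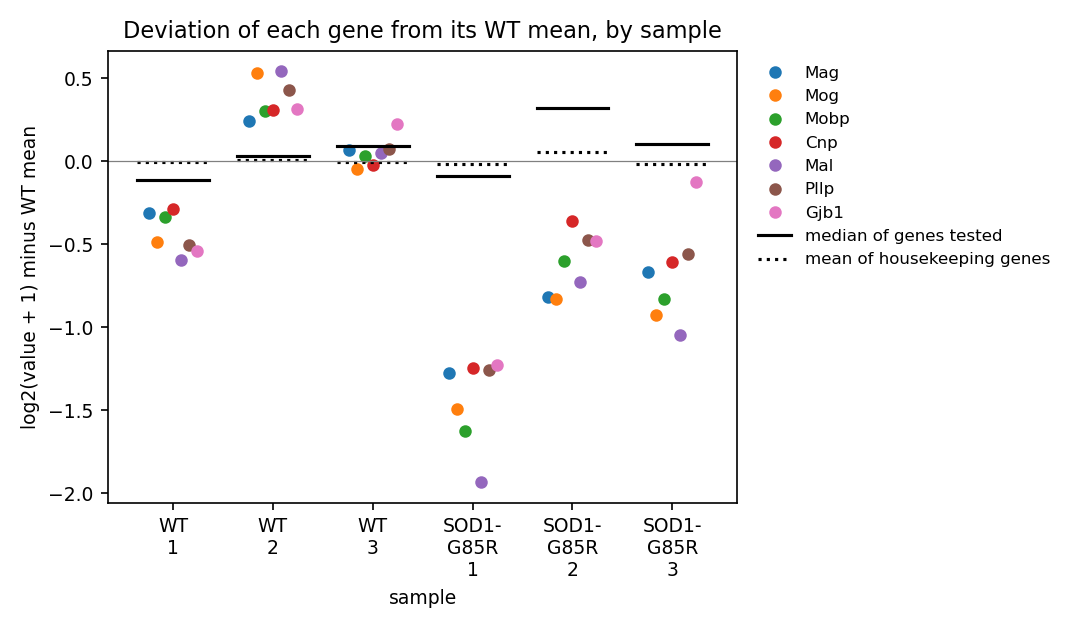
Deviation of each of the 7 genes from its own WT mean (y axis, log2 scale) in each sample (x axis). Solid bars give the median of all genes tested and dotted bars the mean of 13 housekeeping genes. All 7 genes lie below 0 in WT replicate 1 and in the 3 SOD1-G85R samples, lowest in SOD1-G85R replicate 1.

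Around this shared profile each gene kept some variation of its own. The root mean square difference between a gene's centred log2 profile over the 6 samples and the mean profile of the other 6 members was smallest for Pllp, at 0.10, and Mobp, at 0.11. It was 0.15 for each of Cnp, Mog and Mag and 0.25 for each of Mal and Gjb1. The shared profile itself had a root mean square of 0.58. Mal departed most in SOD1-G85R replicate 1, where it lay 0.33 below the shared profile, and Gjb1 in SOD1-G85R replicate 3, where it lay 0.41 above it. Counting error is part of these differences and was not removed: the lowest implied count was 123, for Gjb1, which gives a counting error of 9.02%. For Pllp the counting error was up to 7.35%, and for Cnp, whose lowest implied count was 4502, it was 1.49%. Every value was at least 16.7 times its sample's floor.

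Ratios between members within a sample remove what the genes share, the scaling of the sample included. The widest change was between Mal and Gjb1, whose log2 ratio was 0.62 lower in SOD1-G85R than in WT, with SDs of 0.34 and 0.21 (n = 3 each). The narrowest was between Cnp and Pllp, with a change of 0.03. Of the 21 pairs, 7 had ratios that did not overlap between the genotypes, but so did 30.2% of the 253116 pairs of all genes tested. Among these pairs was Mobp and Cnp, whose log2 ratio was -1.02 ± 0.05 in WT and -1.30 ± 0.08 in SOD1-G85R. The share of separated pairs was near that of the panel, and differences between members were not tested further.

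By the same measure, the genes outside the 7 that lay closest to their mean profile over the 6 samples were Fa2h, a fatty acid hydroxylase gene (0.13), Pacsin1, which codes for a membrane-bending protein (0.18), Setd7, a lysine methyltransferase gene (0.19), Ugt8a, the galactosylceramide synthase gene (0.20), and S100b, which codes for a glial calcium-binding protein (0.20). The median over the 705 other genes tested was 0.67. Fa2h was at 370, 788 and 486 in the WT replicates and at 181, 331 and 287 in the SOD1-G85R replicates. It thus had the pattern of Mog and Mal, with a high WT replicate 2 and a low SOD1-G85R replicate 1, and its log2 difference was -1.01 (SE 0.37, limma adjusted p = 0.257). The log2 differences of the others were -0.55 for Pacsin1, -0.66 for Setd7, -0.74 for Ugt8a and -0.73 for S100b, and none passed.

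The other genes of myelin and the oligodendrocyte lineage on the panel were mostly on the same side. Of 16 such genes 14 had a negative log2 difference (37.4% of all genes tested did), with a median of -0.66. Of these 16, 0 passed limma's adjusted threshold, 6 were lower at an unadjusted p under 0.05 (4.63% of all) and 6 were lower in every SOD1-G85R sample than in any WT sample (9.97% of all). Without SOD1-G85R replicate 2, 14 were negative, against 49.3% of all genes, with a median of -0.74. In that fit 1 passed, 10 were lower at the unadjusted level (5.2% of all) and 9 were separated (16.2% of all). The gene that passed was Opalin, a membrane protein of mature oligodendrocytes, and 0.14% of all genes tested passed as lower in that fit.

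By role, all 3 enzymes of myelin lipid synthesis were below 0 (median -0.74). Among 10 other genes of mature oligodendrocytes and myelin, 9 were below 0 (median -0.64). Opalin had a log2 difference of -1.77 (SE 0.23) and Gpr62, an orphan receptor gene, one of -0.82 (SE 0.21), with limma adjusted p = 0.0810 and 0.200. Plxnb3, a semaphorin receptor gene, was at -0.62 (SE 0.19, limma adjusted p = 0.224). The exception was Pmp22, a peripheral myelin protein gene that other cells express too, at 0.38 (SE 0.35).

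Both lineage transcription factor genes were below 0. Myrf, which drives myelin genes in maturing oligodendrocytes, had means of 1016 ± 159 in WT and 595 ± 104 in SOD1-G85R (log2 difference -0.77, SE 0.22, limma adjusted p = 0.224), and its groups did not overlap. Sox10, expressed from progenitors to mature oligodendrocytes, averaged 332 ± 55.0 and 270 ± 54.4 (log2 difference -0.30, SE 0.24, limma adjusted p = 0.581), with overlapping groups. The 1 progenitor gene measured, Sox4, which is also expressed in immature neurons, was at 484 ± 133 in WT and 717 ± 162 in SOD1-G85R (log2 difference 0.58, SE 0.30, limma adjusted p = 0.420). Of the genes of axon and glial partners, Lingo1, an inhibitor of myelination, averaged 2849 ± 294 and 2063 ± 283 (log2 difference -0.47, limma adjusted p = 0.338) with groups that did not overlap, and Gja1, the astrocyte connexin gene, 4212 ± 1260 and 3787 ± 288 (log2 difference -0.11, limma adjusted p = 0.855). Whether Mag, Mog or the other structural genes differed more than Sox10 was not tested.

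**Figure D4:**
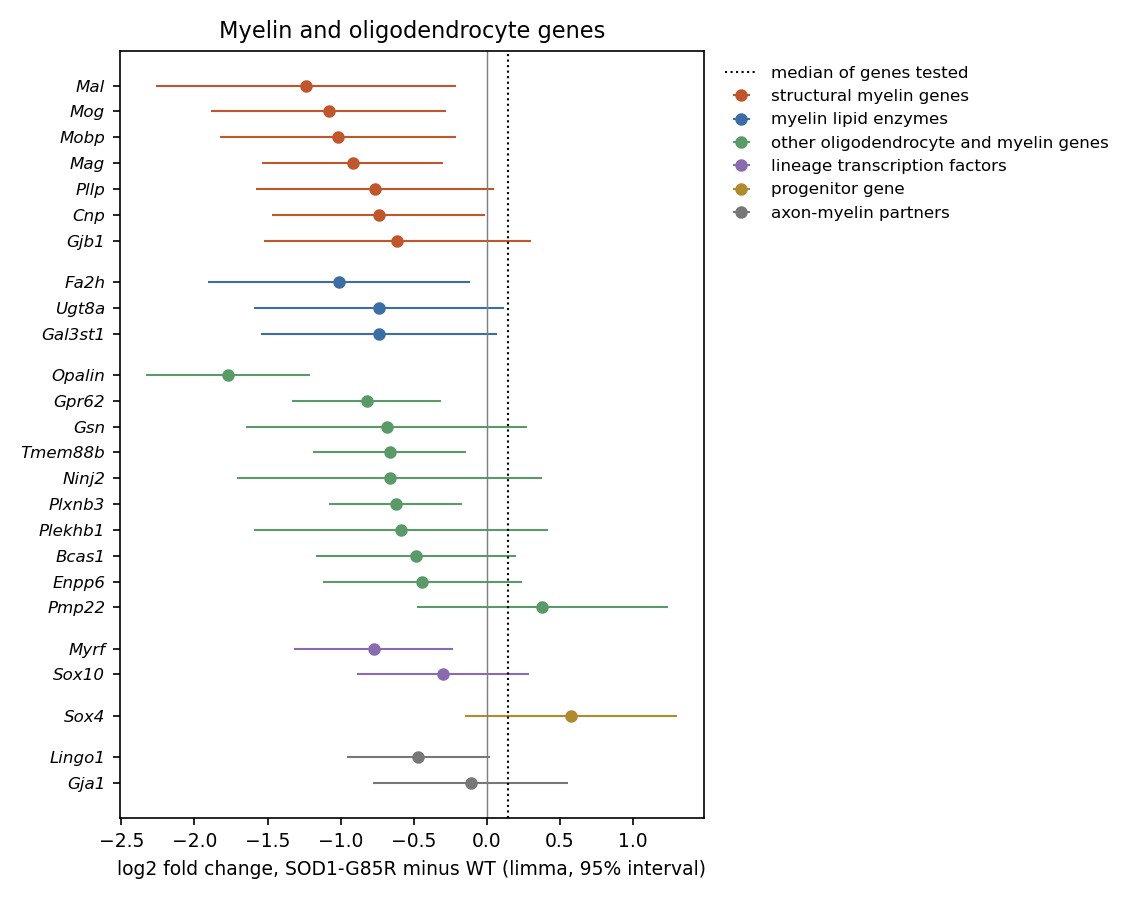
Log2 differences (x axis, SOD1-G85R minus WT, with limma's 95% intervals, unadjusted) of the 7 structural myelin genes, 16 other myelin and oligodendrocyte genes and the axon and glial partner genes Lingo1 and Gja1, coloured by list. The dotted line is the median of all genes tested, 0.15. All but Pmp22 and Sox4 lie below 0.

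Marker lists of neurons, astrocytes, microglia and endothelial cells had median log2 differences between -0.27 and 0.15. The summed values of the 7 structural genes were 18248 to 29529 in WT and 8797 to 16277 in SOD1-G85R. Of 7 neuronal markers measured, 4 were below 0 (median log2 difference -0.27), with sums of 32285 to 38227 in WT and 26615 to 34484 in SOD1-G85R. Slc17a7, the vesicular glutamate transporter gene of cortical and hippocampal excitatory neurons, was at 6032, 6656 and 5378 in the WT replicates and at 3102, 2753 and 4398 in the SOD1-G85R replicates. Its groups did not overlap, and its log2 difference of -0.84 (SE 0.24, limma adjusted p = 0.223) was below those of Cnp, Pllp and Gjb1. Nefl, the neurofilament light chain gene, was also lower in every SOD1-G85R sample (log2 difference -0.58, limma adjusted p = 0.257), whereas Tubb3, a neuronal tubulin gene, was higher in every one (log2 difference 0.14, limma adjusted p = 0.699). The part of neuronal content in the myelin values was not tested. Of 6 astrocyte markers 3 were below 0 (median 0.03), with sums of 13273 to 20993 and 15468 to 16197. Of 8 microglial and macrophage markers 5 were below 0 (median -0.03), the lowest being P2ry12, a purinergic receptor gene of resting microglia (log2 difference -0.77, limma adjusted p = 0.390, groups overlapping), and of 7 endothelial markers 2 were (median 0.15). None of the markers in these lists was at the floor in all samples. The 8 lymphocyte markers summed to between 73.8 and 107 in WT and between 119 and 938 in SOD1-G85R, the highest in replicate 2. In WT replicates 1, 2 and 3, 6, 8 and 2 of these markers were at the sample's floor, so that the sums of WT replicates 1 and 2 were mostly or wholly the floor itself, while in SOD1-G85R at most 1 was. Values were low in SOD1-G85R replicates 1 and 3 too (sums 119 and 213), and only 1 of the 8 markers passed the filter on low values. In replicate 1 all 8 lay below Asb10 (22.4), a gene at the floor in WT. In replicate 3 Asb10 was at 28.4 and the markers lay between 10.2 and 39.8. The part of lymphocytes in the myelin values was not tested.

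Sex-linked signal differed between the groups, and Gjb1 is X-linked. The only SOD1-G85R sample with Uty signal was replicate 2, the sample that stood apart. With a term for Uty signal in the limma fit, the median was -0.91 and no gene of the 7 passed. Among samples with Uty signal the log2 differences of the 7 genes ran from -0.37 (Gjb1) to -0.85 (Mog). Among the other samples they ran from -0.90 (Gjb1) to -1.54 (Mal), and each gene's difference was larger there. The part of sex in these values was not tested.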

How the data were processed

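Whole-brain RNA was measured by NanoString, per the labels. The deposited signal is 1 normalized value per gene and sample. The sources used here do not name the scaling software or background rule. All values above a sample's lowest value were whole multiples (within 0.1 count) of 1 step per sample, from 0.791 to 1.42, and the lowest value was shared by 10 to 59 genes and read as a floor, so tests for raw counts were not used. Groups follow the genotype in the labels. Genes above 20 in at least 3 of 6 samples (712 of 770, all 7 members among them) were tested as log2(value + 1), which understates changes of low genes, with limma 3.58.1 in R 4.3.3 (two-sided, no covariate) and Benjamini-Hochberg adjustment over all 712, at a threshold of 0.05. The fit was tested on simulated data with 712 genes. At the adjusted threshold it recovered 48.2% of 112 changes of 1 log2 unit and 93.2% of 88 changes of 2, with 8 false calls. Changes of the members' size could thus often be missed. The simulated noise was drawn independently for each gene, and no simulated sample stood apart, so the rates in these data may differ. No 2 samples agreed within counting noise (lowest chi-square per degree of freedom 23.1). Alternatives were leaving out each sample, other scalings, filters, pseudocounts, variance models and thresholds, a common floor and a replicate block. After seeing the data, a term for Uty signal and 2 centred fits without SOD1-G85R replicate 2 were chosen as well. Members, lists, motifs and the rule for named genes (the 7 members, the 3 genes of smallest p in each fixed list, the 5 genes of most alike profile) were chosen with earlier results of these data known. Pmp22, the named markers of neurons and microglia and genes named by count fall outside that rule and were chosen after their values were seen, and 1 gene of the lists is not reported here. The names of all 7 members and their upstream sequences were matched in RefSeq (GRCm38.p6). Figures were drawn with matplotlib 3.10.9.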

Additional observations from a re-analysis of the deposited data

How the results depend on the processing

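Each of the 7 genes was fitted under 20 alternatives, and all 140 values were below 0. Part of this was fixed in advance. Other filters, the replicate block, the common floor and variance models other than sample weights left each log2 difference unchanged. For members whose groups did not overlap, leaving out 1 sample could not reverse the sign. Of the 140 values, 5 passed limma's adjusted threshold. Those 5 all came from leaving out SOD1-G85R replicate 2 and centring the other samples on their medians, an alternative chosen after seeing the data, with log2 differences of -0.90 for Mag, -1.15 for Mog, -1.16 for Mobp, -0.86 for Cnp and -1.43 for Mal, so that 5 members and 80 panel genes were called. Centred on housekeeping genes without that sample, 10 panel genes were called and 0 members. Under the other alternatives the smallest adjusted p of a member was 0.0638 (Mobp, sample weights). The members' median stayed between -1.12 and -0.72. With 1 sample left out, 0 to 10 panel genes were called, the 10 without SOD1-G85R replicate 2, and the log2 difference of Gjb1 ran from -0.88 to -0.30, that of Cnp from -0.93 to -0.48. Sample weights, whose estimation stopped short of convergence, called 52 panel genes and a threshold of 0.1 called 4, against 0, with 0 members under either. Quantile normalization moved the share of higher genes at an unadjusted p of 0.05 from 71.6% to 37.9% and the median of all genes from 0.15 to -0.08, while the members' median was -0.91. Whether the replicate numbers pair the samples could not be settled here. Correlations of deviations over all genes tested were 0.23, 0.09 and 0.10 for same-numbered samples and -0.32 to 0.19 for the others. WT replicate 2 correlated better with SOD1-G85R replicate 3 (0.19) than with its own number. For all 7 members replicate 1 was the lowest sample of both genotypes. With the replicate block 0 genes were called and the members' adjusted p was 0.121 to 0.167. That block lowered each member's standard error, for Mal from 0.42 to 0.14. The members' unadjusted p in limma then ran from 0.00127 (Mal) to 0.0227 (Gjb1). With 3 samples a group, the precision is limited by the spread between samples rather than by counts.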
